A study of Mus musculus with 8 samples.

Results

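The hypoxia-inducible factors and the enzymes that make them respond to oxygen were followed in mouse embryos lacking the orphan nuclear receptor Gcnf. The 10 genes were taken by name: 3 alpha subunits (Hif1a, Epas1 and Hif3a), 2 partners (Arnt and Arnt2), 3 prolyl hydroxylases (Egln1, Egln2 and Egln3), the asparaginyl hydroxylase Hif1an, and Vhl. All 10 were present among the 55421 Ensembl genes of the deposited table and passed the filter on low values. The embryos were at E9.25, had 9 to 11 somites, and were either wild type or Gcnf-/-, that is without the receptor encoded by Nr6a1. Each RNA sample was an anterior piece, holding the first pharyngeal arch and everything in front of it, or a posterior piece, holding the second arch and everything behind it. The 4 groups of 2 libraries were mutant anterior and mutant posterior (both numbered 159 and 163), and wild-type anterior and wild-type posterior (both numbered 153 and 156). Not given in the sources used here are the strain and the part of the gene that the allele lacks.

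In cells with enough oxygen, the prolyl hydroxylases modify the HIF alpha subunits, the Vhl ubiquitin ligase then binds them, and they are destroyed. Hif1an, also called factor inhibiting HIF, hydroxylates an asparagine and blocks the recruitment of the coactivators Crebbp and Ep300. When oxygen falls, these reactions slow, the alpha subunit pairs with Arnt or Arnt2, and the pair binds hypoxia response elements in target genes. Among those targets are Egln1, Egln3 and Hif3a themselves, while Egln2 is not known as one. The alpha subunits are controlled mainly as proteins, and the values here are of RNA only.

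Levels are in TPM, a share of transcripts that allows for gene length and adds up to 1000000 in every library. Differences were taken of log2(TPM + 1) and are given with their standard error (SE). A gene was called where limma's moderated test gave a Benjamini-Hochberg adjusted p under 0.05 over all 16699 genes tested. The libraries held 27064113 to 52957992 reads in genes, and those of a group correlated across genes with r of 0.984 to 0.992. The labels do not say whether both libraries of a group stem from different embryos, or whether same-numbered libraries share an embryo. A p-value thus covers the spread between libraries only. Nr6a1 itself lay between 116 and 240 TPM (239.8 in the highest library) in all groups, which does not check the genotype labels, as the deleted part is unknown. Xist was at 25.3 and 30.9 TPM in the mutant libraries numbered 159 and at most 0.0749 TPM elsewhere, and the Y-linked Ddx3y showed the reverse. The mutant libraries 159 and 163 are therefore of different sex and not repeats of 1 embryo, which is not settled for the wild type, and sex was unequal between the genotypes. Summed markers of the forebrain and midbrain (5 genes) lay between 249 and 284 TPM in anterior and between 5.12 and 9.73 TPM in posterior libraries, so the pieces differed the way they are labelled.

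**Figure D1:**
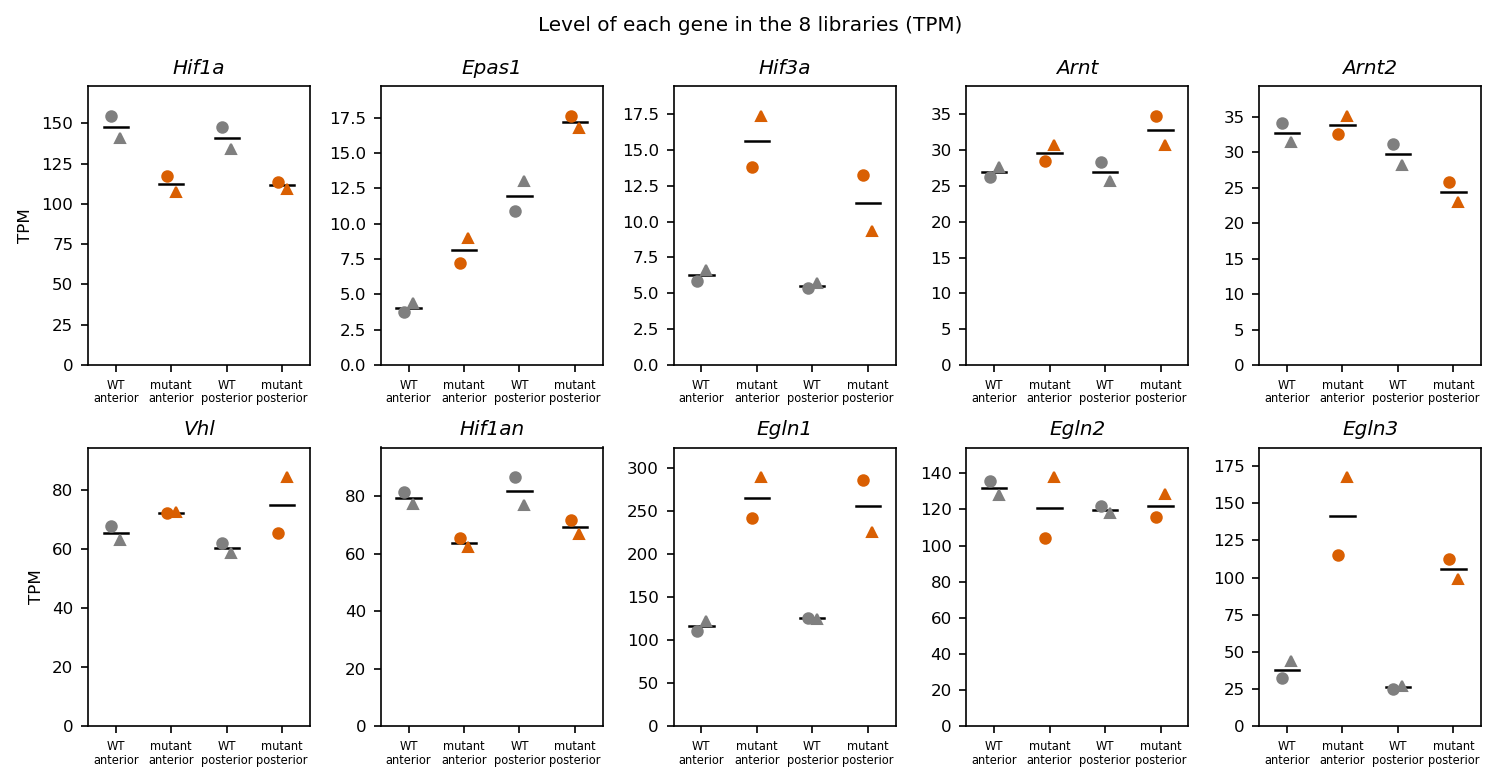
Level of each gene in TPM (vertical axis, from 0) in the wild-type (grey) and mutant (orange) libraries of both regions, with 1 point per library (circles for numbers 153 and 159, triangles for 156 and 163) and a bar at the group mean. Egln1, Egln3 and Hif3a are higher in all 4 mutant than in all 4 wild-type libraries, Hif1a and Hif1an are lower in all 4, and Egln2 overlaps.

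Of the 10 genes, 6 passed the test between mutant and wild type in the anterior pieces, where 23.6% of all genes did. Higher in the mutant were Egln3, Egln1, Hif3a and Epas1 (4 of 10, against 13.3% of all genes), and lower were Hif1a and Hif1an (2 of 10, against 10.2%). In the posterior pieces Egln3, Egln1 and Hif3a were higher (3 of 10, against 8.56% of all genes), and none was lower (2.93% of all genes). In all, 11.5% of genes passed there, and 74.5% of those calls were higher in the mutant, or 55.2% under median-of-ratios scaling. At an unadjusted p under 0.05, 9 of the 10 genes differed in the posterior pieces, where 27.9% of all genes did, and 6 in the anterior pieces, where 37.3% did. Without both libraries numbered 153 the calls were 2 in the anterior and 1 in the posterior pieces. The mutant and wild-type libraries of a region did not overlap for 8 of the 10 genes in the anterior pieces (67.3% of all genes) and for 9 in the posterior pieces (53.2%).

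Egln3, the prolyl hydroxylase PHD3, had the largest difference of the 10 genes in both regions. In the anterior pieces it was at 115 TPM in mutant library 159 and 167 in mutant library 163, and at 32.6 and 43.9 TPM in wild-type libraries 153 and 156. The posterior values were 112 and 98.9 TPM in the mutant, against 25.2 and 27.3 in the wild type. All 4 mutant libraries were above all 4 wild-type libraries by a wide gap. Egln3 rose 3.69-fold in the anterior pieces (means 141 ± 36.9 and 38.3 ± 7.94 TPM, SD, n = 2 libraries each), a difference of 1.85 ± 0.19 (SE; limma adjusted p = 0.00045). It rose 4.03-fold in the posterior pieces (106 ± 9.58 against 26.2 ± 1.45 TPM), a difference of 1.97 ± 0.19 (limma adjusted p = 0.00072). Both calls held under each of the 20 alternatives tried, with differences of 1.58 to 2.12 and 1.88 to 2.06. Without both libraries numbered 159, the ones with Xist, they were 2.12 and 1.88.

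Egln1 encodes PHD2, the main oxygen-sensing prolyl hydroxylase of most tissues, and was the most abundant of the 10 genes in every mutant library. It stood at 242 and 289 TPM in the mutant anterior libraries and at 110.3 and 122 TPM in the wild-type anterior libraries. Posterior levels of Egln1 were 286 and 226 TPM in the mutant, against 126 and 125 TPM in the wild type. The genotypes did not overlap in either region. Egln1 rose 2.28-fold in the anterior pieces (1.18 ± 0.13 SE, limma adjusted p = 0.00067) and 2.04-fold in the posterior pieces (1.01 ± 0.13 SE, limma adjusted p = 0.0027). The anterior call held in all 20 alternatives, and the posterior call was lost in 1 of 20, without both libraries numbered 153 (limma adjusted p = 0.085).

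Egln2, which encodes PHD1, did not pass in any comparison. Its mutant values were 104 and 138 TPM in the anterior and 116 and 128 TPM in the posterior pieces. The wild-type values were 136 and 128 TPM in the anterior and 122 and 118 TPM in the posterior pieces, so genotypes overlapped in both regions. The differences were -0.14 (95% interval -0.44 to 0.16) in the anterior and 0.02 (-0.28 to 0.32) in the posterior pieces. Smaller changes within those intervals cannot be told from none, while the rises of Egln1 and Egln3 lie outside them.

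Within each library the shares and ratios of the 3 prolyl hydroxylase genes do not depend on how the library was scaled. The summed level of these genes, which does depend on scaling, was 461 and 594 TPM in the mutant anterior libraries, against 279 and 294 TPM in the wild type. The posterior sums were 514 and 453 TPM, against 273 and 270.1 TPM. Egln2 made up 22.5% to 28.4% of that sum in the 4 mutant libraries and 43.5% to 48.7% in the 4 wild-type libraries. Egln3 made up 21.8% to 28.2% in the mutant and 9.24% to 14.9% in the wild type. Egln1 was at 0.812 to 1.06 times the level of Egln2 in the wild-type libraries and at 1.76 to 2.47 times in the mutant libraries. Egln3 also gained on Egln1: the ratio was 0.393 to 0.579 in the mutant and 0.201 to 0.359 in the wild type.

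**Figure D2:**
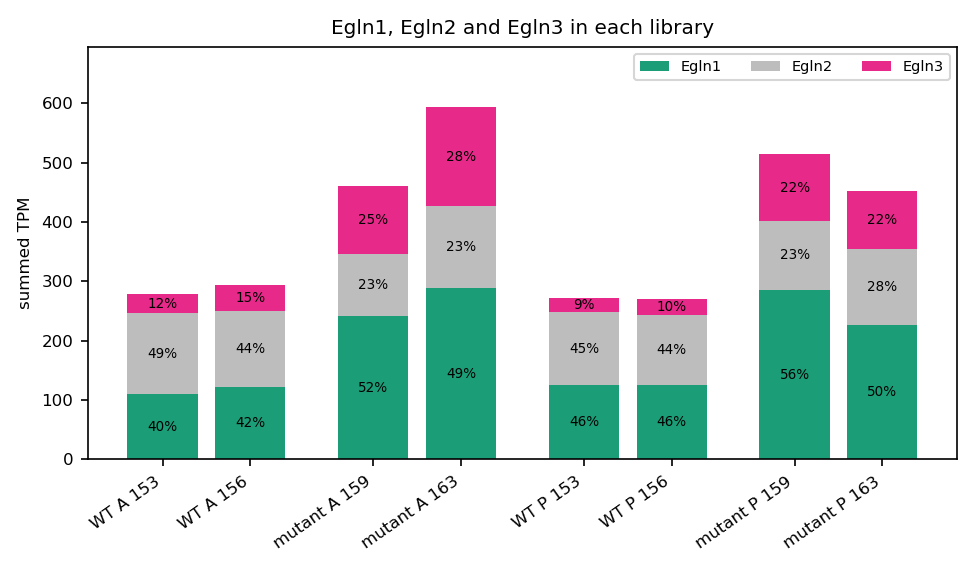
Stacked TPM of Egln1, Egln2 and Egln3 in each of the 8 libraries (A, anterior; P, posterior), with each gene's share of the sum printed in its segment. The mutant bars reach 453 to 594 TPM and the wild-type bars 270.1 to 294 TPM, and the Egln2 segments are of like height in both.

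The promoters of the prolyl hydroxylases and Hif3a are shown because these genes include the 3 that rose in both regions and the 1 that passed in neither. The windows are from RefSeq on GRCm38.p6, run 250 bases before to 50 bases after the annotated start, and are printed 5′ to 3′ on the gene's strand. Capitals mark the core letters of the hypoxia response element, ACGTG or GCGTG, searched on both strands (so also as CACGT or CACGC), with overlapping matches joined. The palindrome CACGTG, an E-box bound by other bHLH factors too, contains the core.
Egln1: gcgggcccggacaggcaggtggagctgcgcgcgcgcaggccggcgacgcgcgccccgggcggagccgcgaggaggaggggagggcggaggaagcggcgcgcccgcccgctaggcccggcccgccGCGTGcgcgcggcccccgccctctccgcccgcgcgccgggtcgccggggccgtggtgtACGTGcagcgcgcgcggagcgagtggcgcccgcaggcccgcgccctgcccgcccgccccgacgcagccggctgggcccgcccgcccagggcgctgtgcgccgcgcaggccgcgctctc
Egln3: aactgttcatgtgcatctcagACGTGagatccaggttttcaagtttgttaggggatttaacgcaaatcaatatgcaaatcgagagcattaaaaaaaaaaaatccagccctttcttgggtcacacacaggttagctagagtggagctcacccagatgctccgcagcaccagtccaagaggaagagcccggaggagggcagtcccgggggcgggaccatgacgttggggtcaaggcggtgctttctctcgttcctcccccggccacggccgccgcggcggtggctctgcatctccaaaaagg
Egln2: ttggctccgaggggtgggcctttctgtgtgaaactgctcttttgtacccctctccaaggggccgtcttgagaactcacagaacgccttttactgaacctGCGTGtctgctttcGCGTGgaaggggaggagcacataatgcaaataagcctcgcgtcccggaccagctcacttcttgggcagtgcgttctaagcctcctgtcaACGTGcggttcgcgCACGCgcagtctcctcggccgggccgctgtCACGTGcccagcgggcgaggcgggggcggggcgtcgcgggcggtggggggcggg
Hif3a: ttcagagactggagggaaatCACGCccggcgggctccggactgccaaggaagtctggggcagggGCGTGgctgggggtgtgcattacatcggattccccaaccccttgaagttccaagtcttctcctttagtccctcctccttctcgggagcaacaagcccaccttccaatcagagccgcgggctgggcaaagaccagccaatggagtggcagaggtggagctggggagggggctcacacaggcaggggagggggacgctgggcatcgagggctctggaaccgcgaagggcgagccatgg
The windows are chr8:124949205-124949504 for Egln1, chr12:54203825-54204124 for Egln3, chr7:27166753-27167052 for Egln2 and chr7:17062378-17062677 for Hif3a, all on the minus strand. Egln1 held 2 cores, Egln3 held 1, Hif3a held 2, and Egln2 held 5, the most of the 4, although its RNA level did not pass. A further Egln2 window on chr7, at 27165679 to 27165978, held 1. Of 32851 such windows of all genes, 43.8% held at least 1 core. In the 10 windows found for 9 of the 10 genes, the Hif1a window held 2 cores, that of Arnt 1, and those of Arnt2, Vhl and Hif1an none. Epas1 had no window in the table used. A match is a run of letters, not a measured binding site.

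Among the alpha subunits of the anterior pieces, the most abundant gene fell and the others rose. Hif1a, which encodes the subunit made in most tissues, was at 117 and 108 TPM in the mutant anterior libraries, against 155 and 141 TPM in the wild type. The posterior Hif1a values were 114 and 109.5 TPM in the mutant, against 148 and 134 TPM in the wild type. Each mutant library was below each wild-type library in both regions. Hif1a fell in the anterior pieces to 0.761 of the wild-type mean (-0.39 ± 0.10 SE, limma adjusted p = 0.021). The posterior ratio was 0.792 (-0.33 ± 0.10 SE) and did not pass (limma adjusted p = 0.062), though it did under median-of-ratios scaling (0.024), quantile normalization (0.045) and voom on recovered reads (0.034). The anterior call was lost without mutant library 163 (limma adjusted p = 0.12), wild-type library 153 (0.18) or wild-type library 156 (0.070), without both libraries numbered 153 (0.21) and under quantile normalization (0.051). The libraries do not mark strand, so reads of Hif1a and of its antisense gene Gm15283, listed at 0.171 to 3.57 TPM, cannot be told apart.

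Epas1 encodes HIF-2 alpha, which is prominent in endothelial cells and some mesenchyme, and differed by region as well as by genotype. Its anterior values were 7.21 and 9.00 TPM in the mutant and 3.72 and 4.39 TPM in the wild type. Its posterior values were 17.6 and 16.8 TPM in the mutant and 10.9 and 13.0 TPM in the wild type. The 4 groups were ordered mutant posterior, wild-type posterior, mutant anterior and wild-type anterior, and no neighbours in that order overlapped. Epas1 rose 2.00-fold in the mutant anterior pieces (0.85 ± 0.15 SE, limma adjusted p = 0.0052), a call lost without both libraries numbered 153 (0.083). The posterior ratio of 1.44 (0.49 ± 0.15 SE) did not pass (limma adjusted p = 0.067), except with voom on recovered reads (0.031).

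Within each region the summed endothelial markers, like Epas1, were higher in the mutant libraries. Single markers went both ways in the anterior pieces, while in the posterior pieces only Tek was lower in the mutant. Across regions the order differed. Mutant anterior sums (292 and 383 TPM) lay around the wild-type posterior ones (316 and 322 TPM), while Epas1 was lower in the mutant anterior libraries. The sum of 8 markers was 292 and 383 TPM in the mutant anterior and 280.1 and 245 TPM in the wild-type anterior libraries, and 490.0 and 512 TPM against 316 and 322 TPM in the posterior pieces. None of the 8 was at 0 in any library, and 2 of 8, Pecam1 and Cldn5, rose in the mutant in each region (13.3% and 8.56% of all genes were called higher). In the anterior pieces Pecam1 differed by 0.80 and Cldn5 by 0.88, against -0.49 for Emcn and -0.33 for Tek (limma adjusted p = 0.094 and 0.20), and the median of the 8 was 0.08 against 0.02 for all genes. The posterior median was 0.52 against 0.05. Pecam1 differed there by 1.11 and Cldn5 by 1.25. Cdh5 differed by 0.57 and Esam by 0.53 (limma adjusted p = 0.056 and 0.062), and Tie1 by 0.50 and Emcn by 0.40 (0.12 and 0.21). Tek was at -0.06 and Kdr at 0.06 (limma adjusted p = 0.87 and 0.86). Per 1000 TPM of these markers, Epas1 was at 24.7 and 23.5 TPM in the mutant anterior libraries and at 13.3 and 17.9 TPM in the wild type. The posterior ratio was 36.0 and 32.7 in the mutant and 34.4 and 40.4 in the wild type. The anterior genotypes therefore stayed apart on this ratio and the posterior ones overlapped. In bulk tissue, more cells of a type and more RNA per cell cannot be told apart.

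**Figure D3:**
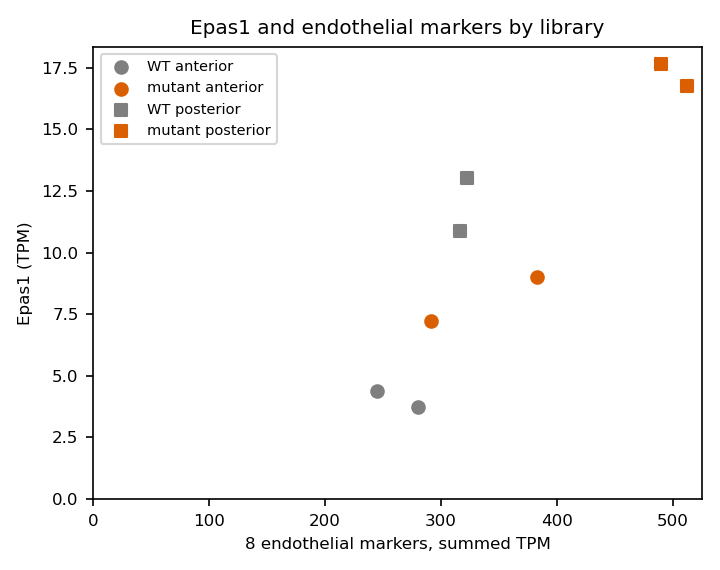
Epas1 in TPM (vertical axis) against the summed TPM of 8 endothelial markers (horizontal axis), with 1 point for each of the 8 libraries. Mutant posterior libraries (orange squares) are highest on both axes, at 16.8 to 17.6 TPM of Epas1, and wild-type anterior libraries (grey circles) are lowest, at 3.72 to 4.39 TPM.

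Hif3a, a HIF alpha gene some of whose protein forms oppose the other alpha subunits, was low but higher in the mutant. Anterior levels were 13.8 and 17.4 TPM in the mutant and 5.88 and 6.64 TPM in the wild type. Posterior levels were 13.3 and 9.31 TPM in the mutant and 5.35 and 5.69 TPM in the wild type. All 4 mutant libraries lay above all 4 wild-type libraries, and the mutant posterior pair was the most spread. Hif3a rose 2.49-fold in the anterior pieces (1.19 ± 0.18 SE, limma adjusted p = 0.0026) and 2.05-fold in the posterior pieces (0.90 ± 0.18 SE, limma adjusted p = 0.017). The posterior call was lost without mutant posterior library 159 (limma adjusted p = 0.055), wild-type posterior library 153 (0.12) or wild-type posterior library 156 (0.081), without both libraries numbered 153 (0.20), without a filter (0.068) and on the 4 posterior libraries alone (0.055). The anterior call was lost without both libraries numbered 153 (limma adjusted p = 0.067). Protein forms of Hif3a cannot be told apart in a value for the whole gene.

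The make-up of the alpha subunit RNA also differed between genotypes, as did its sum. Hif1a made up 78.6% to 84.8% of the summed TPM of the 3 alpha genes in the mutant libraries and 87.8% to 94.2% in the wild-type libraries. The sum itself was 134 to 145 TPM in the mutant and 152 to 164 TPM in the wild type. Hif3a took 6.87% to 13.0% in the mutant and 3.26% to 4.37% in the wild type. Over both regions the Epas1 share overlapped, at 5.21% to 12.4% in the mutant and 2.26% to 8.52% in the wild type. Within each region it was higher in the mutant, without overlap. It was 5.21% and 6.71% against 2.26% and 2.89% in the anterior pieces. The posterior shares of Epas1 were 12.2% and 12.4% against 6.64% and 8.52%.

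The partner genes encode the stable subunits that any HIF alpha needs for DNA binding, Arnt in most cells and Arnt2 mainly in neural tissue and kidney. Arnt was at 28.5 and 30.7 TPM in the mutant anterior and 34.8 and 30.7 TPM in the mutant posterior libraries. The wild-type libraries held 26.3 and 27.6 TPM in the anterior and 28.3 and 25.7 TPM in the posterior pieces. The mutant libraries were higher in each region without overlap, by little. Arnt passed in no comparison, and its mutant minus wild-type differences were 0.13 (95% interval -0.12 to 0.38) and 0.27 (0.02 to 0.52), with limma adjusted p of 0.42 and 0.15. With voom on recovered reads the posterior difference passed (limma adjusted p = 0.047).

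Arnt2 was at 32.6 and 35.2 TPM in the mutant anterior and 34.1 and 31.4 TPM in the wild-type anterior libraries, which overlapped. Posterior Arnt2 was at 25.8 and 23.0 TPM in the mutant and 31.2 and 28.3 TPM in the wild type, with no overlap. The posterior genotype difference of -0.27 (95% interval -0.52 to -0.03) did not pass (limma adjusted p = 0.14), except under median-of-ratios scaling (0.044) and quantile normalization (0.040). Within the mutant, Arnt2 was lower in the posterior than in the anterior pieces (-0.46 ± 0.11 SE, limma adjusted p = 0.021). That call was lost without mutant anterior library 159 (limma adjusted p = 0.056), mutant anterior library 163 (0.12) or mutant posterior library 163 (0.11), on the mutant libraries alone (0.083) and without both libraries numbered 153 (0.074). The ratio of Arnt2 to Arnt was 0.741 and 0.749 in the mutant posterior libraries and 1.10 to 1.30 in the other 6.

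Vhl encodes the subunit that recognises hydroxylated HIF alpha, and Hif1an the asparaginyl hydroxylase. Vhl was at 72.1 and 72.5 TPM in the mutant anterior libraries, against 67.7 and 63.2 TPM in the wild type. The posterior Vhl levels were 65.3 and 84.2 TPM, against 61.9 and 58.6 TPM. The mutant values lay above the wild-type values in each region, but neither difference passed (0.14, 95% interval -0.14 to 0.42, and 0.30, 0.02 to 0.58, with limma adjusted p of 0.44 and 0.16). Without mutant posterior library 159 the posterior difference was 0.48 and passed (limma adjusted p = 0.033).

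Hif1an was at 65.3 and 62.4 TPM in the mutant anterior libraries, against 81.4 and 77.3 TPM in the wild type. The posterior Hif1an levels were 71.7 and 66.7 TPM, against 86.6 and 77.1 TPM. No mutant library reached the lowest wild-type library. Hif1an fell in the anterior pieces to 0.805 of the wild-type mean (-0.31 ± 0.10 SE, limma adjusted p = 0.0497), a call at the edge of the threshold that 10 of 20 alternatives lost. Leaving out any 1 of the 4 anterior libraries ended it (limma adjusted p = 0.10 without mutant library 159, 0.19 without mutant library 163, 0.28 without wild-type library 153 and 0.16 without wild-type library 156). The posterior difference of -0.24 ± 0.10 (SE) did not pass (limma adjusted p = 0.15), except under median-of-ratios scaling (0.045). The ratio of Hif1an to Hif1a within a library lay between 0.526 and 0.630 in all 8. Within each region it was slightly higher in the mutant, without overlap. It was 0.557 and 0.579 against 0.526 and 0.548 in the anterior pieces, and 0.630 and 0.609 against 0.586 and 0.575 in the posterior pieces.

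**Figure D4:**
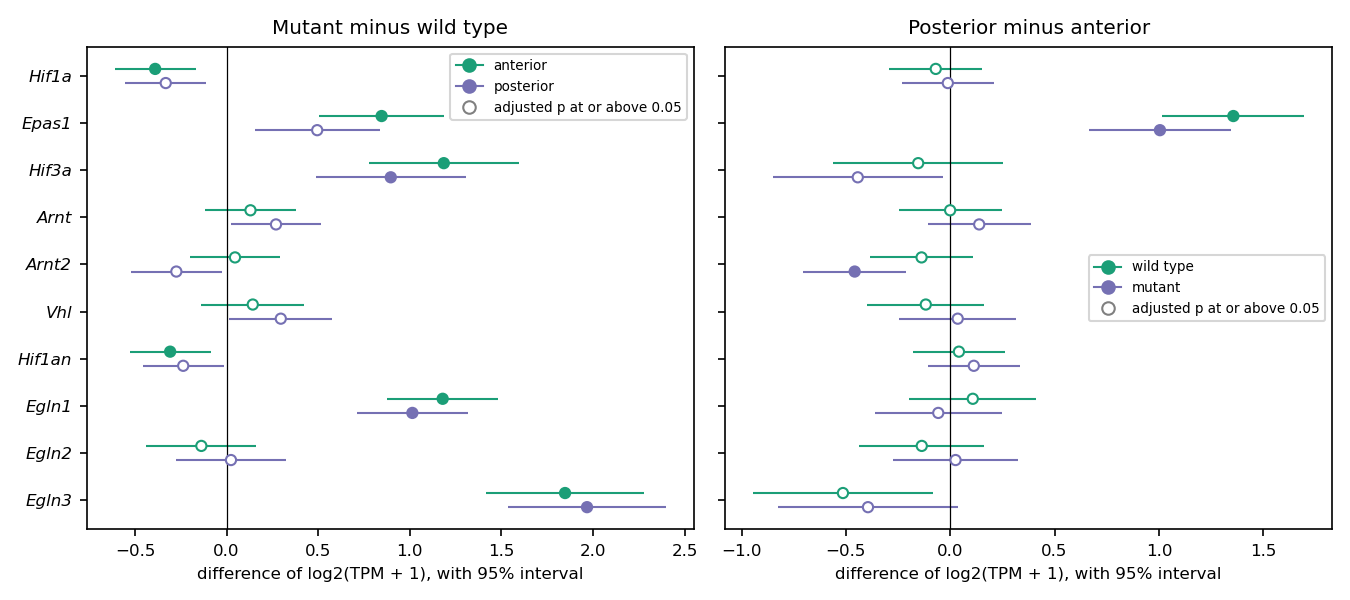
Differences of log2(TPM + 1) for each gene with 95% intervals from limma, mutant minus wild type on the left (green, anterior; purple, posterior) and posterior minus anterior on the right (green, wild type; purple, mutant). Filled points passed at an adjusted p under 0.05. Egln3 reaches 1.85 and 1.97 on the left, and Epas1 reaches 1.36 and 1.00 on the right.

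The genotype effect was then compared between regions. For 0 of the 10 genes did the anterior and posterior effects differ by limma's interaction test, where 1.01% of all genes passed (0.413% with the higher and 0.599% with the lower anterior effect). By the same test 0 of the 10 had an unadjusted p under 0.05 (12.6% of all genes did), while voom also called 0. Epas1, called in the anterior pieces only, had a difference of effects of 0.35 (95% interval -0.13 to 0.83, limma adjusted p = 0.55). For Hif1a it was -0.06 (-0.37 to 0.26, limma adjusted p = 0.91) and for Hif1an -0.07 (-0.38 to 0.24, limma adjusted p = 0.88). The calls made in 1 region are therefore not shown to belong to that region. Egln3 had an interval of -0.73 to 0.49, and Egln1 one of -0.27 to 0.60.

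Region gave fewer calls among these genes than genotype did in the anterior pieces. Between wild-type posterior and anterior pieces 1 of 10 passed, where 14.5% of all genes did, and between the mutant pieces 2 of 10 did, where 16.1% of all genes did. In the wild type 1 gene was higher (7.86% of all genes) and 0 were lower (6.65%), and in the mutant 1 was higher (8.01%) and 1 lower (8.1%). Libraries of the 2 regions did not overlap for 7 of the 10 genes in the wild type (63.1% of all genes) and for 6 in the mutant (52.1%). Epas1 was the gene called in both, 2.95-fold higher in the posterior pieces of the wild type (1.36 ± 0.15 SE, limma adjusted p = 0.00047) and 2.12-fold higher in those of the mutant (1.00 ± 0.15 SE, limma adjusted p = 0.0022). These calls held under all 21 alternatives. The endothelial markers also summed higher in posterior libraries, as given above, and so did 6 visceral endoderm markers (1941 to 2350 against 16.6 to 134 TPM in the wild type, and 212 to 1003 against 11.2 to 17.7 TPM in the mutant, where 1 was at 0 in an anterior library). The 7 heart muscle markers summed to 494 and 1517 TPM in wild-type posterior libraries 153 and 156, against 147 and 35.7 TPM in the anterior ones. Of the 6 tested, 3 were called higher there (7.86% of all genes). In mutant libraries 159 and 163 they summed to 3514 and 416 TPM in posterior and 425 and 124 TPM in anterior pieces, and 0 were called. The part of the endothelial, visceral endoderm and heart muscle markers in the Epas1 difference was not tested. Arnt2, as given above, was the other call in the mutant. Egln3 was at 0.686 of its anterior mean in the wild-type and 0.748 in the mutant posterior pieces, which did not pass (limma adjusted p = 0.11 and 0.22). Without both libraries numbered 159 those differences passed (0.037 and 0.042), as did that of Hif3a in the mutant (0.023, and 0.034 without mutant posterior library 159).

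Markers of other tissues also differed between the genotypes. The 8 primitive erythroid markers, led by the embryonic globins, summed to 25418 and 43784 TPM in the mutant anterior and 22107 and 43948 TPM in the mutant posterior libraries, against 4232 to 9905 TPM in the wild type. None of them was at 0. The 8 neuronal markers summed to 430 to 607 TPM in the mutant anterior and 145 to 148 TPM in the wild-type anterior libraries, and to 105 to 113 TPM against 55.9 to 60.6 TPM in the posterior pieces. In the anterior pair, the mutant library with more erythroid RNA, number 159, had less Egln3, Egln1 and Hif3a than number 163. In the posterior pair the library with more erythroid RNA, also number 159, had more of all 3. With globin genes, mitochondrial transcripts and Mir6236 removed and the rest rescaled, the anterior difference was 1.90 for Egln3, 1.23 for Egln1 and 1.24 for Hif3a, and the posterior difference 1.98, 1.03 and 0.92. Markers of posterior tissue also differed between the posterior genotypes. The 6 posterior region markers, Hox genes and Cdx2, summed to 356 to 366 TPM in the mutant and 608 to 830.4 TPM in the wild type, and 2 of 6 were lower. The 6 visceral endoderm markers summed to 212 to 1003 TPM in the mutant and 1941 to 2350 TPM in the wild type, and 1 of 6 was lower. Of all genes, 2.93% were lower there. None of these 12 was at 0 in a posterior library. Rescaling without globins removes only the share that the dropped transcripts take, not other RNA of erythroid cells. The 7 heart muscle markers, given above, overlapped between genotypes in both regions and differed widely within a group, at 3514 and 416 TPM in mutant posterior libraries 159 and 163. Of the 6 tested, 0 passed in either region (23.6% and 11.5% of all genes), and at most 1 of the 7 was at 0 in a library. The part of the erythroid, endothelial, neuronal, heart muscle, posterior region and visceral endoderm markers in the genotype differences was not tested.

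Other genes of the oxygen-sensing pathway were taken in lists, described by counts beside the median of all genes tested. Of 21 target genes of HIF, 17 rose and 0 fell in the anterior pieces (13.3% and 10.2% of all genes). Their median difference was 1.02 against 0.02 for all genes. The counts were the same in the posterior pieces (8.56% and 2.93% of all genes), with a median of 0.95 against 0.05. The transcriptional repressor Bhlhe40 rose from a mean of 1.01 to 38.6 TPM in the anterior and from 2.45 to 36.4 TPM in the posterior pieces. Ankrd37, an ankyrin repeat gene, rose in the posterior pieces from 8.19 to 29.3 TPM, and Mxi1, an antagonist of Myc, from 11.6 to 29.4 TPM. Bnip3, a mitophagy receptor, rose in the anterior pieces from 22.6 to 91.6 TPM. Adm, the vasodilator adrenomedullin, rose in the anterior pieces from 1.54 to 36.2 TPM, and Ddit4, an inhibitor of mTOR signalling, from 85.3 to 1219 TPM (and from 95.8 to 994 TPM in the posterior pieces). The list was drawn up with results of these libraries known, so it is no independent evidence of its direction. Without both libraries numbered 153, 11 rose in the anterior and 7 in the posterior pieces.

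The HIF hydroxylases belong to a wider family of enzymes that use oxygen and 2-oxoglutarate, which includes collagen hydroxylases and histone and DNA demethylating enzymes. Of 17 others tested, 8 rose and 0 fell in the anterior pieces (13.3% and 10.2% of all genes). In the posterior pieces 7 rose and 0 fell (8.56% and 2.93% of all genes). The medians were 0.40 against 0.02 for all genes, and 0.39 against 0.05. Kdm3a, a histone demethylase, rose from 46.9 to 96.5 TPM in the anterior and from 45.5 to 93.9 TPM in the posterior pieces. The collagen prolyl hydroxylase gene P4ha1 rose from 90.8 to 149 TPM and from 101 to 203 TPM. Plod2, a collagen lysyl hydroxylase, rose in the anterior pieces from 45.7 to 76.1 TPM, and the DNA dioxygenase Tet2 in the posterior pieces from 1.62 to 4.33 TPM. Kdm3a, P4ha1 and P4ha2 are also on the list of HIF targets. The anterior count was 5 without mutant library 163 of that region, 5 without wild-type library 153, 4 without wild-type library 156 and 2 without both libraries numbered 153. The posterior count was 2 without wild-type library 153 of that region, 4 without wild-type library 156 and 0 without both libraries numbered 153.

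**Figure D5:**
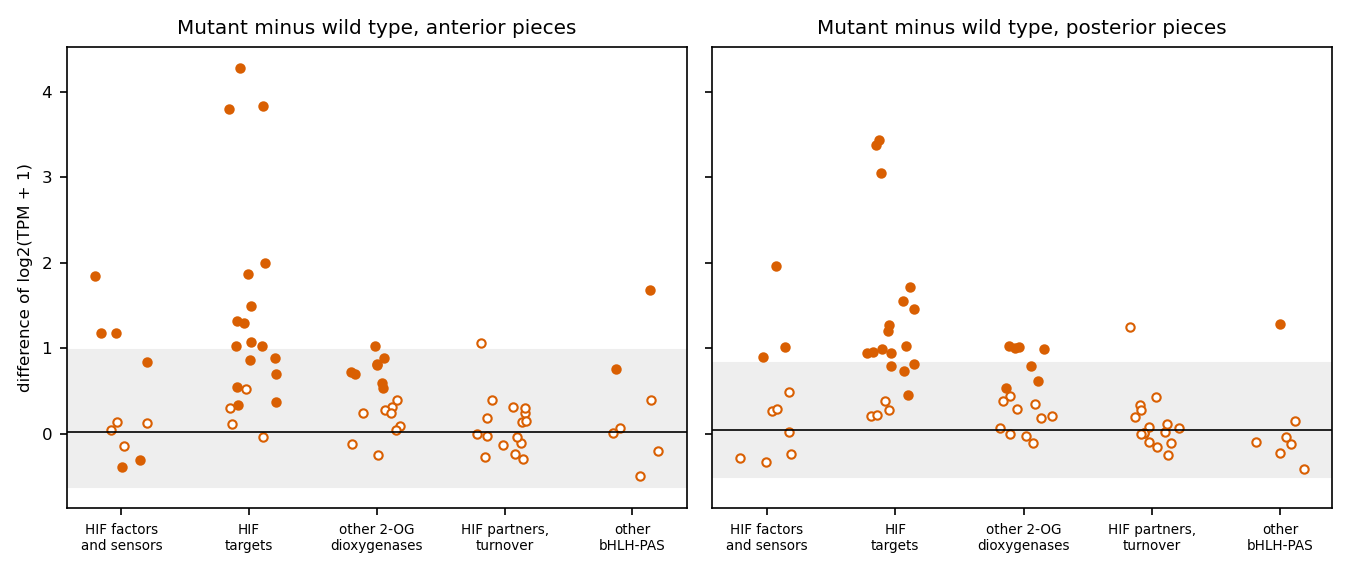
Mutant minus wild-type differences of log2(TPM + 1) for the 10 genes and for 4 lists of related genes, in anterior (left) and posterior (right) pieces, with 1 point per gene, filled where the adjusted p was under 0.05. The line is the median and the grey band the 5th to 95th percentile of all genes tested. The HIF targets lie mostly above the line, with medians of 1.02 and 0.95.

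Genes for proteins that work with the alpha subunits gave no calls between genotypes. Of 16 genes for the Vhl ligase (Elob, Eloc, Cul2, Rbx1), coactivators, chaperones and turnover factors, 0 passed in either region by limma, where 23.6% and 11.5% of all genes did. At an unadjusted p under 0.05 there were 5 and 3, against 37.3% and 27.9% of all genes. The list's medians were 0.07 and 0.05, against 0.02 and 0.05 for all genes. Cited4 had the largest differences of the list, 1.06 ± 0.42 and 1.25 ± 0.42 (SE), but did not pass (limma adjusted p = 0.099 and 0.090). The scaffold gene Rack1, with the smallest p in both regions, had means of 2392 and 1820 TPM in mutant and wild-type anterior pieces and 2113 and 1553 TPM in posterior pieces (limma adjusted p = 0.061 and 0.066). Of the 11 other bHLH-PAS genes, which share the DNA-binding and dimerisation domains of the HIF subunits, 7 passed the filter. Npas3, a neural member of this family, rose in both regions, from 1.03 to 5.57 TPM and from 0.790 to 3.38 TPM. Sim1, a neural regulator in the same family, rose in the anterior pieces from 0.343 to 1.28 TPM and was at 2.83 and 1.86 TPM in wild-type and mutant posterior pieces (limma adjusted p = 0.24).

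Between regions the calls on the HIF targets and dioxygenases were near the share of all genes (14.5% in the wild type and 16.1% in the mutant). Posterior against anterior, 2 of the 21 HIF targets were higher and 1 lower in the wild type, and 3 were higher and 1 lower in the mutant. Ndrg1, a stress-responsive gene, rose in the wild-type posterior pieces by 1.18 (limma adjusted p = 0.0021). Of the 17 dioxygenases 2 were higher in the wild type and 3 in the mutant. Cited2, which competes with HIF alpha for Ep300, was the 1 of 16 partner genes that was lower in wild-type posterior pieces (-0.45 ± 0.13 SE, limma adjusted p = 0.047). Of all genes, 6.65% were lower in that comparison. The aryl hydrocarbon receptor gene Ahr was lower in the mutant posterior than in the mutant anterior pieces (-0.76 ± 0.16 SE, limma adjusted p = 0.013). The interaction test called 0 genes on each of the 4 lists (1.01% of all genes). At an unadjusted p under 0.05 were 3 HIF targets, 1 dioxygenase, 1 bHLH-PAS gene and 0 partner genes (12.6% of all genes).

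Genes with the nearest pattern were found by the root mean square difference of centred log2(TPM + 1) over the 8 libraries, among 13386 named genes. For Egln3 they were Plk3 (0.143), H2-K1 (0.156) and Adm2 (0.156), while Egln3 itself had a standard deviation of 1.07 over the libraries. For Egln1 they were Carmil3 (0.0769), Syt2 (0.0781) and Mapk8ip3 (0.0829), against its own 0.600. The nearest to Hif3a were Pygl (0.0797), Panx2 (0.105) and Klhdc8b (0.107), and to Epas1 Smarcd3 (0.0855), Cybrd1 (0.134) and Cabp7 (0.139). Genes nearest to Hif1a were Gsta4 (0.0287), Mapre1 (0.0341) and Tirap (0.0397), and to Hif1an Ap1g1 (0.0267), Ppp2r5a (0.0276) and Appbp2 (0.0309). The named genes are among many with a like pattern. Within a distance of the member's standard deviation divided by 2 lay 543 genes for Egln1, 508 for Hif1a and 494 for Hif3a. There were 267 for Egln3, 232 for Epas1 and 151 for Hif1an.

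On mm10, by the GENCODE M21 annotation, Hif1a (ENSMUSG00000021109) spans 73901375 to 73947530 of chromosome 12 on the plus strand, and Egln3 (ENSMUSG00000035105) 54178981 to 54203860 of the same chromosome on the minus strand. Epas1 (ENSMUSG00000024140) spans 86753700 to 86833410 of chromosome 17. Chromosome 7 holds Hif3a (ENSMUSG00000004328) from 17031507 to 17062427, Egln2 (ENSMUSG00000058709) from 27158658 to 27166802 and Arnt2 (ENSMUSG00000015709) from 84246278 to 84410176. Egln1 (ENSMUSG00000031987) spans 124908587 to 124949324 of chromosome 8, Vhl (ENSMUSG00000033933) 113623959 to 113631633 of chromosome 6, Hif1an (ENSMUSG00000036450) 44562850 to 44576274 of chromosome 19 and Arnt (ENSMUSG00000015522) 95434388 to 95497240 of chromosome 3. Values are for whole protein-coding genes. The fewest reads behind any value were 195, for Epas1 in wild-type anterior library 153, and the most were 15435, for Egln1 in mutant posterior library 159.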

How the data were processed

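Poly-A RNA libraries that do not mark strand were made with a TruSeq kit, per the labels' protocols. CASAVA 1.8.2 and STAR were used with mm10, per the submitters' processing notes. Not given in the sources used here are the annotation and the counter. TPM values were deposited, 1 column for each of 8 libraries, each summing to 1000000. Because TPM is relative, a class that takes more lowers all other values. GENCODE M21 gave names and exon-union lengths for 55240 of 55421 identifiers. TPM multiplied by length came out as whole reads (within 0.01) for 98.8% to 98.89% of values above 0.

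Genes with at least 1 TPM in at least 2 libraries (16699) were fitted as log2(TPM + 1) with limma 3.58.1 in R 4.3.3, tested on simulated data. The fit had 4 group means, 4 residual degrees of freedom and a mean-variance trend, and tests were two-sided. A fold is a ratio of mean TPM. Differences of log2(TPM + 1) understate changes of low genes. The members and lists were chosen with earlier results of these data known. Named were all members, up to 4 genes per list with the smallest p, and the 3 nearest patterns of each called member (those of Arnt2 are not reported here). Alternatives covered pseudocount, filter, scaling, weights, libraries and a replicate block. Voom on recovered reads was added after seeing the data.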

Additional observations from a re-analysis of the deposited data

How the results depend on the processing

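With 2 libraries a group, calls near the threshold depend on single libraries. Of the 12 calls on the genes, none changed direction, and those of Egln3 in both regions, Egln1 in the anterior pieces and Epas1 between regions held under every alternative. Calls among the 10 genes ranged, leaving out 1 library, from 4 to 6 (anterior genotype), 2 to 3 (posterior genotype), 1 to 1 (wild-type region), 1 to 3 (mutant region) and 0 to 0 (interaction). The posterior genotype count of 3 became 6 under median-of-ratios scaling or voom on recovered reads and 5 under quantile normalization. Without both libraries numbered 153 the counts were 2 (anterior), 1 (posterior) and 1 (mutant region), and without both numbered 159 they were 2 (wild-type region) and 4 (mutant region). The mutant region count was 1 on those groups alone.

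All-gene counts leaving out 1 library ran from 1545 to 4563 (anterior, 3937 with all), 383 to 1832 (posterior, 1919), 20 to 209 (interaction, 169), 1182 to 2880 (wild-type region, 2422) and 1732 to 2770 (mutant region, 2690). The anterior count was 1545 without wild-type library 153 of that region, 1840 without wild-type library 156 and 2044 without mutant library 163, and the posterior count 383 and 625 without wild-type libraries 153 and 156. The interaction count was 88 without either mutant anterior library, 61 and 74 without wild-type anterior libraries 153 and 156, and 20 and 24 without the posterior ones. The wild-type region count was 1504 and 1201 without anterior libraries 153 and 156, and 1232 and 1182 without the posterior ones. The mutant region count was 1732 and 1740 without anterior libraries 159 and 163. Without both numbered 153 the 5 counts were 652, 180, 0, 573 and 1708. The posterior count was 954 without a filter (interaction 55), 1102 with library weights and 934 on the posterior libraries alone, and the mutant region count on its own groups was 1593. HIF targets called higher ran from 14 to 17 and 13 to 17, and were 11 and 7 without both numbered 153. The dioxygenases ran from 4 to 9 and 2 to 9, and were 2 and 0. Causes were not tested.

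The labels do not pair same-numbered libraries, and the main fit did not pair them. Their deviations from the group means correlated with r of 0.136 (numbers 159 and 163) and 0.0216 (153 and 156). With 2 libraries a group the deviations are mirror images, so both numbers of a genotype share 1 value. No value from libraries known to be paired or unpaired was at hand to set beside them, so they cannot exclude pairing. If a number stands for 1 embryo, the 4 libraries of a genotype are not 4 independent embryos. Xist was high in both libraries numbered 159 and in neither numbered 163, and erythroid sums were 43784 and 43948 TPM in the former and 25418 and 22107 TPM in the latter, a hint of pairing from the data and not from the labels. With a replicate block the region and interaction counts of genes were 2404 (wild type), 2617 (mutant) and 115, and those of members 1, 2 and 0. The genotype groups share no number.

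The sign turned in 42 cases, all of differences that passed neither way. Leaving out 1 library, wild-type region differences ran from -0.069 to 0.068 (Arnt), -0.14 to 0.00023 (Hif1a) and -0.041 to 0.12 (Hif1an). Mutant region differences ran from -0.073 to 0.050 (Hif1a), -0.23 to 0.11 (Egln1), -0.17 to 0.22 (Egln2) and -0.15 to 0.22 (Vhl). Interactions ran from -0.13 to 0.012 (Hif1a), -0.33 to 0.028 (Vhl), -0.15 to 0.011 (Hif1an), -0.0040 to 0.33 (Egln1), -0.36 to 0.038 (Egln2) and -0.39 to 0.15 (Egln3). Genotype differences ran from -0.012 to 0.10 (Arnt2, anterior), -0.34 to 0.061 (Egln2, anterior) and -0.051 to 0.10 (Egln2, posterior). Under median-of-ratios scaling the turned values were 0.018 (Hif1a, wild-type region), 0.023 (Hif1a, mutant region), 0.084 (Arnt, wild-type region) and -0.039 (Egln2, posterior). Under quantile normalization they were 0.048 (Hif1a, interaction), 0.042 (Hif1a, wild-type region), 0.027 (Arnt, wild-type region) and 0.013 (Hif1an, interaction). With voom they were 0.0044 and 0.027 (Hif1a, wild-type and mutant region) and 0.072 (Arnt, wild-type region). Rescaled without globins they were 0.00026 (Hif1a, mutant region) and 0.045 (Arnt, wild-type region). Without both numbered 159 they were 0.024 (Hif1a, mutant region), 0.061 (Egln2, anterior), -0.099 (Egln2, mutant region) and 0.24 (Egln3, interaction), and without both numbered 153 -0.0037 (Hif1an, wild-type region).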
